A study of Homo sapiens with 6 samples.

Results

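The genes described here encode the enzymes that build cholesterol and fatty acids and the proteins that regulate them. A list of 33 genes was found by symbol among the 62443 genes of the expression table, comprising 18 enzymes of the sterol arm, 5 regulators and 10 genes of the fatty acid arm. All 6 libraries came from HGC-27 cells, a human gastric cancer cell line. Total RNA was profiled in 3 untreated libraries, named Con, and 3 libraries from cells given the GLUP peptide, and the comparison asked which pathways the peptide altered. GLUP is a ring-shaped peptide modelled on the stretch of VGLL4 with which that protein contacts the transcription factor TEAD4. The labels give Con no treatment, while the study's methods name the peptide's buffer as the negative control. The length of the treatment is stated differently in different places of the study and was not used here. The labels do not say whether the 3 libraries of a group came from separate cultures. The study's methods mention biological replicates of the RNA without tying them to these libraries. Every p-value thus measures the spread between these libraries only.

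Cholesterol synthesis begins when acetyl-CoA units are joined and reduced to mevalonate, which is converted to isoprenoids, then to squalene, and finally closed into a ring and trimmed to cholesterol. Fatty acid synthesis uses the same acetyl-CoA, which is carboxylated and extended by fatty acid synthase before desaturases, elongases and acyl-CoA synthetases modify the product. Both arms are switched on by the SREBP factors, which SCAP escorts out of the endoplasmic reticulum when sterols are scarce and which INSIG proteins hold back when sterols are plentiful.

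Expression was given as FPKM, fragments scaled to transcript length and to the mapped fragments of the library, and levels were compared between genes on that scale. Read depth is unknown because the table holds no counts. FPKM totals ranged from 909735 to 965147 per library, 20061 to 21498 genes were above 0, and mitochondrially encoded genes took 21.9% to 29.7% of the total. Con replicate 2 stood apart from the rest, its correlation with the remaining libraries averaging 0.898 where those of the other 5 averaged 0.954 to 0.964. The deviation of each library from the gene means followed transcript GC content (Spearman across genes -0.343 in Con replicate 1 and -0.601 in Con replicate 2, against 0.458 in Con replicate 3 and 0.340 to 0.544 in GLUP). Of the cell type markers, the mesenchymal genes VIM, CDH2 and FN1 summed to 337 to 390.5 FPKM in Con and 223 to 337 FPKM in GLUP, nearly all of it VIM. Of 5 gastric mucosa markers, 4 were listed at 0 in every library. The summed level of 5 epithelial markers was 2.97 to 3.70 FPKM in Con and 5.18 to 6.06 FPKM in GLUP, with the keratin genes KRT8, KRT18 and KRT19 each higher in every GLUP library. The other two lay the other way at very low levels: CDH1 was at 0.0148 to 0.0799 FPKM in Con and listed at 0 in every GLUP library, and EPCAM had means of 0.0668 FPKM in Con and 0.0150 FPKM in GLUP. The summed level of the leukocyte markers CD74 and PTPRC was 0.609 to 1.38 FPKM in Con and 2.21 to 2.51 FPKM in GLUP, with PTPRC at most 0.0394 FPKM. The fibroblast markers summed to 25.4 to 45.2 FPKM in Con and 19.3 to 27.4 FPKM in GLUP, where DCN was lower by its means (29.7 and 19.5 FPKM) and COL1A1 (3.48 and 4.73 FPKM) and COL1A2 (0.271 and 0.410 FPKM) were higher. The adipocyte markers ADIPOQ and PLIN1 summed to at most 0.0345 FPKM and the endothelial marker VWF to at most 0.0045 FPKM. The part of these differences in the results below was not tested, and in bulk RNA fewer cells of a type and less RNA per cell cannot be told apart.

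To see the regulatory sequence behind these genes before their values, promoters were read from RefSeq (GRCh38.p14), each running from 250 bases before to 50 after the transcription start. The table held 29 of the 33 members; ACAT2, FDFT1, SQLE and FASN had no entry. Motifs were searched on both strands, and overlapping matches were each counted. CCAAT, the box bound by NF-Y, a known partner of SREBP, was found in 18 of 29 member promoters (62.1%) against 35.7% of all 27305 promoters. The sterol arm held it in 12 of 15 promoters (80%) and the fatty acid arm in 3 of 9 (33.3%). TCACNCCAC, a form of the sterol regulatory element, was found in 1 of 29 (3.45%, SREBF2) against 1.15% of all promoters. GGGCGG, the SP1 box, was found in 27 of 29 (93.1%) against 44.6%, and the E-box CACGTG in 4 of 29 (13.8%) against 7.43%. CATTCC, the core bound by TEAD factors, was found in 5 of 29 (17.2%) against 14% of all promoters. The member windows ran from 57.3% to 82.3% GC, and the set of all promoters was not matched to them in GC content or expression. A match of letters is a description of the window and not a binding site. Of the members whose Con and GLUP levels did not overlap, MVK, SCAP, INSIG1 and FADS2 are not shown (5, 0, 1 and 0 CCAAT boxes). The 250 bases before the start are shown for 7 others, from 5′ to 3′ on the gene's own strand, with CCAAT or its complement ATTGG and the sterol regulatory element in capitals.
MSMO1 (chr4:165327419-165327668, plus strand): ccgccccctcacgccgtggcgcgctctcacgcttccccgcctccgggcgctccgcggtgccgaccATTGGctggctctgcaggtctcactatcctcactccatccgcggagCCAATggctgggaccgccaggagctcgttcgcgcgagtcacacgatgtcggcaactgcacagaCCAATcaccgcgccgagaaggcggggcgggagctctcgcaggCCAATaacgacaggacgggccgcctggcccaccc
SC5D (chr11:121292521-121292770, plus strand): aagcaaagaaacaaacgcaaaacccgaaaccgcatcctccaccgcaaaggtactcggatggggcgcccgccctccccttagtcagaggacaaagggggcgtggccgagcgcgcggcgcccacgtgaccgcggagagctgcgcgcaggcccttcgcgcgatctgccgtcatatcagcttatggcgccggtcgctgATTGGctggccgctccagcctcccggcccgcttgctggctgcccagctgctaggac
STARD4 (chr5:111512536-111512785, minus strand): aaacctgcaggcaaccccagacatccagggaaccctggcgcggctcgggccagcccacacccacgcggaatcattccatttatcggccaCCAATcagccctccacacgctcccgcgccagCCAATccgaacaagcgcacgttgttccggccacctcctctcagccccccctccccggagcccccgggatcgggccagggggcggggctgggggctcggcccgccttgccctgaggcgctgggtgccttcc
SCD (chr10:100346983-100347232, plus strand): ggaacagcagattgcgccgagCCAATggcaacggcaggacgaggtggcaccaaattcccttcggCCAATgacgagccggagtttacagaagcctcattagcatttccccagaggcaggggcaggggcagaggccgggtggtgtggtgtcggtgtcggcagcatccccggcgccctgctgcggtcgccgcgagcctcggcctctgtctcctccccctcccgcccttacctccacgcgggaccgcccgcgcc
SREBF2 (chr22:41832855-41833104, plus strand): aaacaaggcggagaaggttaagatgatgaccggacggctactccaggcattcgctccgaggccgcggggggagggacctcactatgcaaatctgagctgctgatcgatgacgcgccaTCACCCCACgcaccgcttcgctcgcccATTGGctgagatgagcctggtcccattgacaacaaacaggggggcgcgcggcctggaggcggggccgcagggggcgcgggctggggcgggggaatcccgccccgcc
SREBF1 (chr17:17836987-17837236, minus strand): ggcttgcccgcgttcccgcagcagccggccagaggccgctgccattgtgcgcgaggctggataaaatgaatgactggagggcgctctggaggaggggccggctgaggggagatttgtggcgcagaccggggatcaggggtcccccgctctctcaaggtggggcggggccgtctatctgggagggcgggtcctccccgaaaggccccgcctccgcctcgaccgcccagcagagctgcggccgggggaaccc
ME1 (chr6:83431052-83431301, minus strand): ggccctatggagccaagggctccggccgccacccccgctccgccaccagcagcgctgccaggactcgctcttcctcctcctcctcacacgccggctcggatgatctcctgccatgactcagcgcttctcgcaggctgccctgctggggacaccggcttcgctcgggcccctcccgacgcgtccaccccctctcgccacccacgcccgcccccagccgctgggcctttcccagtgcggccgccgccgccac
MSMO1 carried 4 CCAAT boxes, STARD4 and SCD 2 each, and SC5D 1. SREBF2 held the sterol regulatory element together with 1 CCAAT box, and neither motif was found in the windows of SREBF1 and ME1. Members with lower and with higher levels in GLUP were both found with CCAAT boxes and without them.

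The pathway was expressed very unevenly along its length in these cells. FDPS, which makes farnesyl diphosphate at the branch to the isoprenoids, had the highest mean of the members (391 FPKM over the 6 libraries), 97.7 times that of HMGCS1 and 351 times that of LSS, the cyclase that closes the sterol ring. ACAT2, the thiolase that joins the first acetyl-CoA units, followed at 74.6 FPKM, then SQLE (44.5), EBP (32.5) and FDFT1 (29.1 FPKM). In the fatty acid arm, SCD, the desaturase that makes oleate, led at 12.3 FPKM. FASN, the fatty acid synthase itself, was at 0.0695 FPKM, so that SCD exceeded it 178-fold and ACACA, the acetyl-CoA carboxylase, 42.6-fold. FASN lay at or below 0.101 FPKM in every library of both groups. Its transcript had 65.3% GC, against 46.5% for SCD and 48.9% for ACACA. The part of GC content in the levels of different genes was not tested. Of the 33 members, 25 averaged 1 FPKM or more over the 6 libraries and were tested, while MVK, SREBF1, SREBF2, SCAP, INSIG1, FASN, FADS2 and ACSL4 did not pass that minimum. The closest to it were ELOVL6 just inside (1.09 FPKM) and INSIG1 just outside (0.946 FPKM). CYP51A1 passed through 1 Con library only (5.85 FPKM in Con replicate 1, against at most 0.417 FPKM in the other 5 libraries). ELOVL6 and ACSL3 passed through Con (GLUP means 0.764 and 0.884 FPKM) and LSS through GLUP (Con mean 0.850 FPKM).

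**Figure D1:**
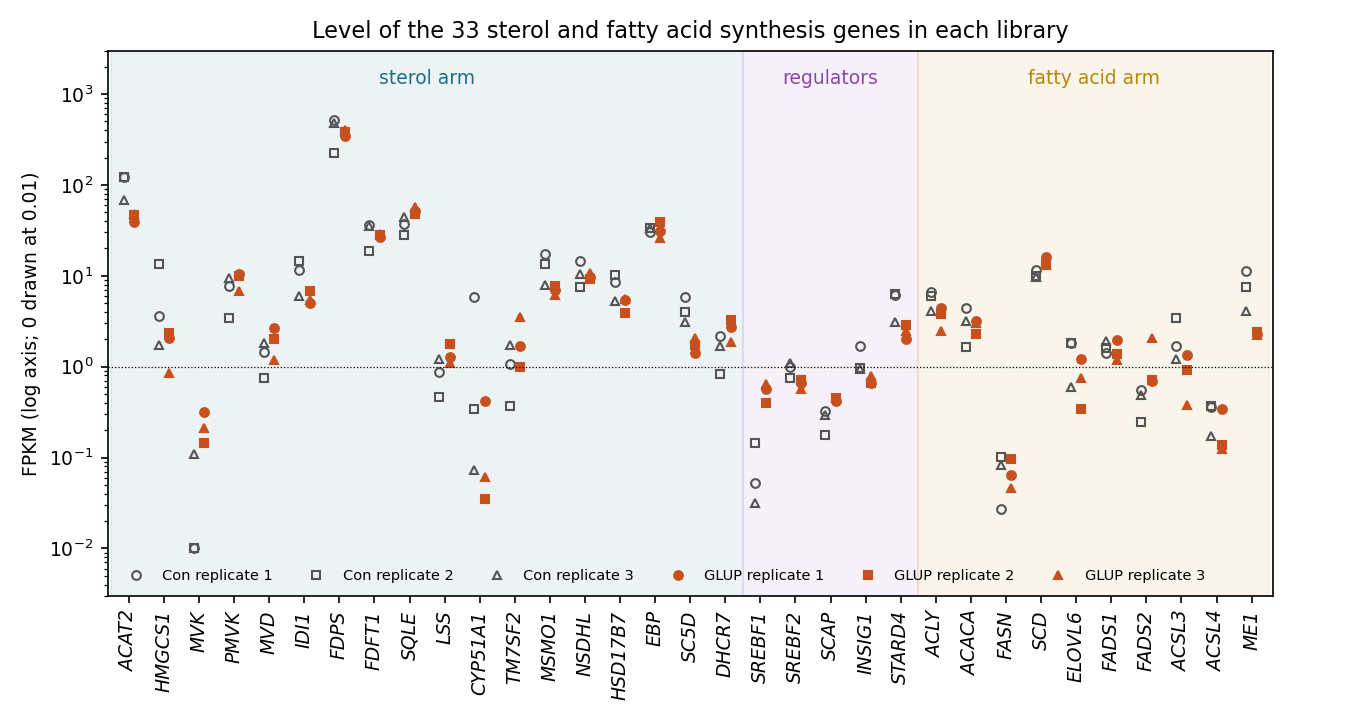
Level of each of the 33 genes in FPKM on a log axis, with 1 point per library for Con and GLUP (3 each), values of 0 drawn at 0.01 and the dotted line at the minimum of 1 FPKM. FDPS stands highest at 222 to 516 FPKM and FASN lies at 0.0271 to 0.101 FPKM in both groups.

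Next, GLUP was compared with Con by a limma fit on log2(FPKM + 1) across 7406 genes. None of the 25 tested members passed an adjusted p of 0.05 by limma with Benjamini-Hochberg adjustment, as was the case for all genes tested (0.0%), and 0.0% also passed without the minimum on the level. At an unadjusted p under 0.05, 5 members were lower in GLUP (20%; ACAT2, ME1, MSMO1, SC5D and STARD4) against 17.2% of all genes tested, and 0 were higher against 4.46%. The same 5 members were those whose 3 GLUP values all lay below the 3 Con values, against 22.7% of all genes. SQLE and SCD (8%) had all GLUP values above Con, against 7.55% of all genes. These shares lay near the background. By sign alone 18 of 25 members were lower (72%), as were 65.5% of all genes tested, whose median log2 difference was -0.23. The balance of directions depended on the scaling of the libraries. Scaled by a trimmed mean of log ratios, 12 members were lower and 13 higher by sign, and at an unadjusted p under 0.05 3 were lower (ACAT2, ME1 and SC5D, 12% against 8.83% of all genes) and 3 higher (DHCR7, SCD and SQLE, 12% against 10.2%). Centred on the median, the same 3 were lower (against 7.71% of all genes) and 4 higher (DHCR7, LSS, SCD and SQLE, 16% against 11.3%). Relative to the median of all genes, ACAT2 was at -0.93 and ME1 at -1.08 on the log2 scale, SQLE at 0.76 and SCD at 0.65. Log2 differences here understate the change of low genes, because 1 FPKM was added before the logarithm.

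**Figure D2:**
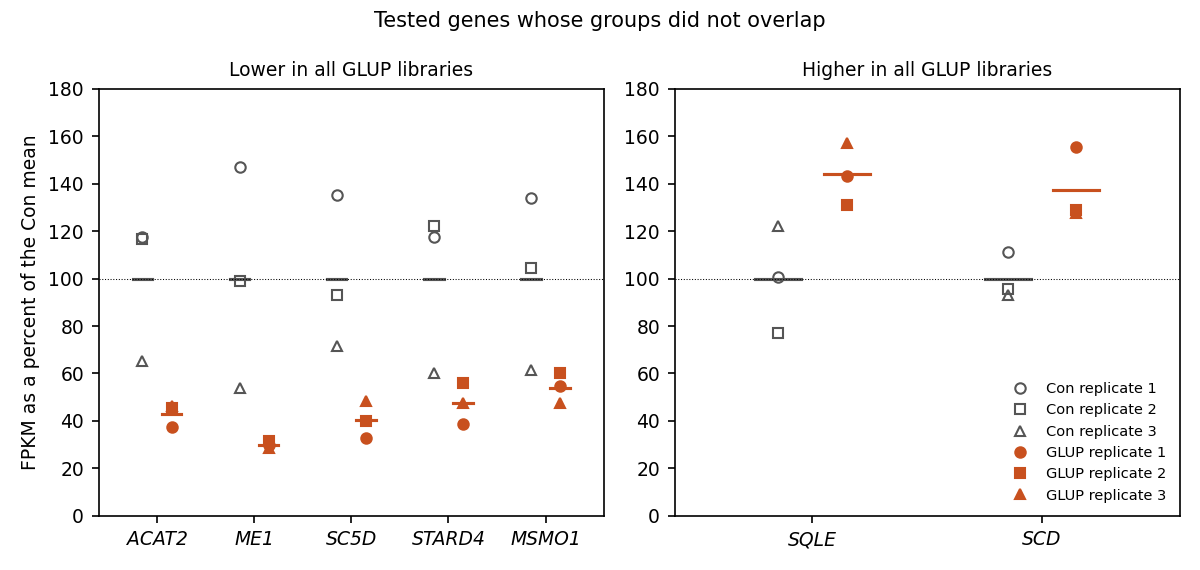
Level of the 7 tested members whose Con and GLUP values did not overlap, as a percent of each gene's Con mean, with 1 point per library (3 per group) and a bar at each group mean. ACAT2, ME1, SC5D, STARD4 and MSMO1 lie lower in all GLUP libraries, with Con replicate 3 (open triangle) nearest to GLUP, and SQLE and SCD lie higher in all 3.

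The calls depended on a single control library. In the 5 tested members that were lower without overlap, Con replicate 3 was in each case the Con library nearest to GLUP. Without Con replicate 3, 6 members passed an adjusted p of 0.05 by limma as lower (ACAT2, IDI1, ME1, MSMO1, SC5D and STARD4) and 0 as higher, against 16.3% and 2.2% of all genes tested. That library was left out only to see what the result rests on, and nothing in the labels sets it apart. Its deviation from the gene means followed GC content as in GLUP (Spearman 0.458, against 0.340 to 0.544). In Con replicates 1 and 2 the sign was opposite (-0.343 and -0.601). Of the 6 members, IDI1, ME1, MSMO1, SC5D and STARD4 had 34.4% to 39.3% GC, against a median of 47.2% over all genes tested. ACAT2 had 45.5%. The part of GC content in these calls was not tested. Without Con replicate 2, 0 members passed the adjusted p by limma, 4 were lower at an unadjusted p under 0.05 (16% against 14.8% of all genes) and 0 higher (against 3.93%), and the median of the sterol arm was -0.35.

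In the sterol arm, 11 of 17 tested members were lower in GLUP (64.7%, against 65.5% of all genes tested). The median log2 difference was -0.04, with a range of -1.16 to 0.56. Relative to the median of all genes the arm's median was 0.19, and it was above 0 under each other scaling tried. The arm opens with ACAT2, which had the most negative log2 difference of the sterol arm with all 6 libraries and a pseudocount of 1 FPKM. HMGCS1 was lower than ACAT2 with smaller pseudocounts (-1.39 against -1.17 at 0.1 FPKM). ACAT2 (chromosome 6, 160183077 to 160200144, plus strand, GRCh37) measured 123, 122 and 68.3 FPKM in the Con libraries (in the order of their numbers, as for all genes given by library) and 39.2, 47.2 and 48.2 FPKM in GLUP. All GLUP libraries were below all Con libraries, and Con replicate 3 was the lowest of Con. The mean was 104 ± 31.2 FPKM in Con and 44.9 ± 4.94 FPKM in GLUP (SD, n = 3), 2.32-fold higher in Con, with a log2 difference of -1.16 (SE 0.33) and an adjusted p of 0.194 by limma. An exact permutation test of the 6 values gave p = 0.1, the smallest that 3 against 3 libraries allow, as it did for every member whose groups did not overlap. The exons of ACAT2 overlap the chaperonin gene TCP1 on the opposite strand by 454 bases (17.2% of its exon bases), and strand use in the counting is not given in the sources used here. TCP1 lay at 28.4 to 39.8 FPKM in Con and 22.4 to 26.3 FPKM in GLUP (log2 difference -0.55).

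The next steps to mevalonate and the isoprenoids lay in both directions, and none passed the test. HMGCS1, the HMG-CoA synthase, was at 3.59, 13.5 and 1.72 FPKM in Con and 2.05, 2.38 and 0.842 FPKM in GLUP. The groups overlapped, Con replicate 2 being the highest and GLUP replicate 3 the lowest (log2 difference -1.08, SE 0.54, adjusted p = 0.256 by limma, and -0.41 without Con replicate 2). MVK, the mevalonate kinase, was listed at 0 in Con replicates 1 and 2 and at 0.108 FPKM in Con replicate 3, against 0.316, 0.146 and 0.211 FPKM in GLUP. All GLUP values were above Con, at a level far below the minimum (log2 difference 0.24, adjusted p = 0.589 by limma without the minimum), and 225 exon bases of MVK overlap MMAB on the opposite strand. PMVK and MVD, the next kinase and the decarboxylase, had log2 differences of 0.43 and 0.33 with overlapping groups. IDI1, the isomerase of the C5 units, was at 5.96 to 14.7 FPKM in Con and 5.08 to 6.74 FPKM in GLUP, and the groups overlapped (log2 difference -0.73). FDPS differed by -0.01 on the log2 scale, with a mean of 405 ± 159 FPKM in Con and 378 ± 26.0 FPKM in GLUP (SD, n = 3), Con replicate 2 being the lowest at 222 FPKM. FDFT1, the squalene synthase, differed by -0.04.

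At the entry to the sterol ring, SQLE, the squalene epoxidase, was the 1 tested sterol gene that was higher without overlap. It was at 36.8, 28.2 and 44.6 FPKM in Con and 52.3, 47.9 and 57.4 FPKM in GLUP. Every GLUP library was above every Con library, with Con replicate 3 the nearest. The means were 36.5 ± 8.20 and 52.5 ± 4.79 FPKM (SD, n = 3), a 1.44-fold difference that did not pass the test (log2 difference 0.53, SE 0.30, adjusted p = 0.294 by limma). LSS, the next enzyme, differed by 0.37 on the log2 scale with overlapping groups.

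The enzymes that trim the ring were split between lower and higher levels. MSMO1 (chromosome 4, 166248819 to 166264316, plus strand, GRCh37), which oxidises the methyl groups at C4, was at 17.3, 13.5 and 7.95 FPKM in Con and 7.05, 7.78 and 6.12 FPKM in GLUP. GLUP replicate 2 and Con replicate 3 almost met. The log2 difference was -0.75 (SE 0.33, adjusted p = 0.224 by limma), with means of 12.9 ± 4.70 and 6.98 ± 0.832 FPKM (SD, n = 3). SC5D (chromosome 11, 121163390 to 121184119, plus strand, GRCh37), the sterol desaturase, was at 5.85, 4.03 and 3.10 FPKM in Con and 1.41, 1.72 and 2.09 FPKM in GLUP. Its groups were well apart, and its mean was 2.49-fold higher in Con (log2 difference -0.93, SE 0.28, adjusted p = 0.194 by limma). DHCR7, which acts at the end of the same branch, lay the other way with a log2 difference of 0.51, from 0.822 to 2.17 FPKM in Con and 1.85 to 3.26 FPKM in GLUP, and its groups overlapped. TM7SF2, a sterol reductase, had the highest log2 difference of the arm (0.56), also with overlap. NSDHL and EBP differed by -0.08 and -0.04. HSD17B7 differed by -0.56, but its reads may be shared with the near-identical copy HSD17B7P2, which had a mean of 4.73 FPKM, so its value is uncertain. CYP51A1, the lanosterol demethylase, shares 2844 exon bases (68.2% of its own) with ENSG00000285772 on the same strand. The sum of both was 5.85, 24.9 and 5.11 FPKM in Con and 5.33, 4.75 and 2.35 FPKM in GLUP, and the value of CYP51A1 alone is therefore uncertain (log2 difference -0.89).

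**Figure D3:**
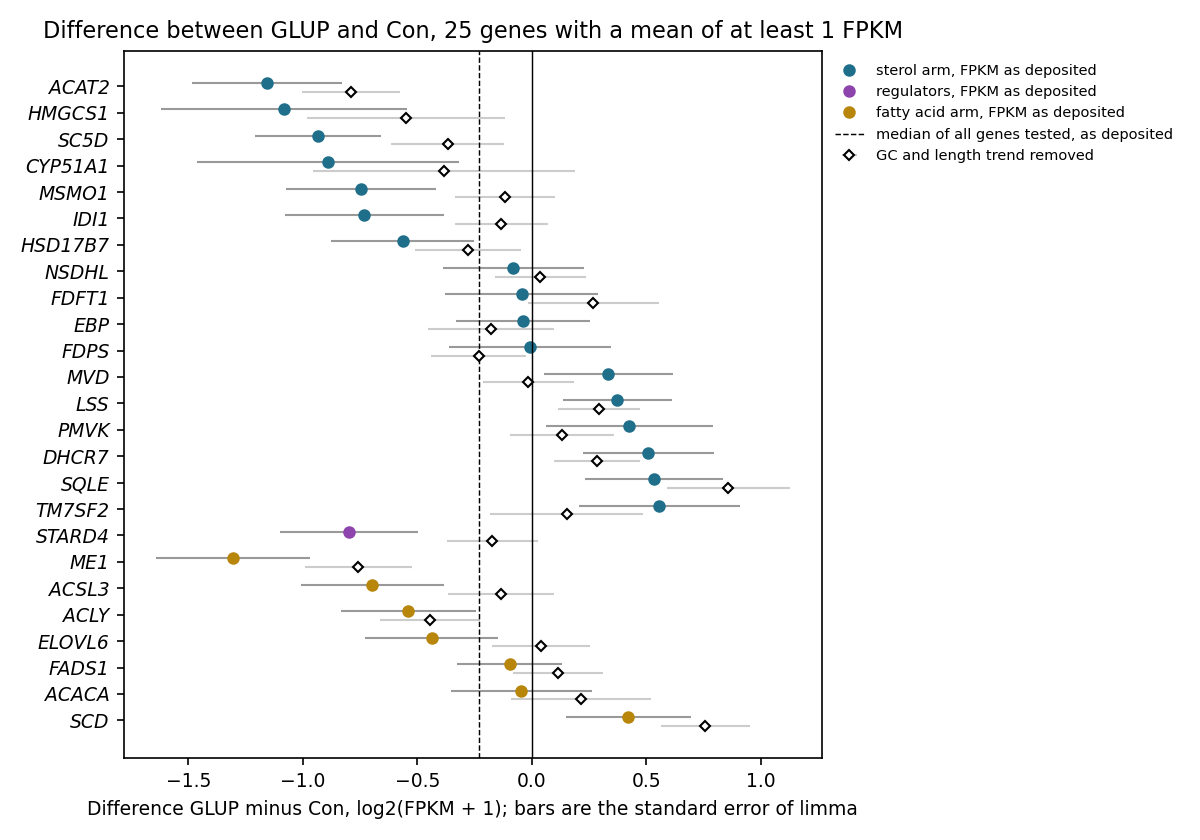
Log2 difference in FPKM + 1, GLUP minus Con, for the 25 tested members, coloured by arm, with bars for the standard error of limma, open diamonds for the values after removal of the GC and length trend, and a dashed line at the median of all genes tested. Values as deposited run from -1.31 for ME1 to 0.56 for TM7SF2, and the dashed line lies at -0.23, and ACACA, just below 0, is above 0 under other scalings.

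The regulators were low, with STARD4 alone above the minimum. STARD4 (chromosome 5, 110831731 to 110848288, minus strand, GRCh37), which carries sterols between membranes, was at 6.09, 6.32 and 3.13 FPKM in Con and 2.00, 2.91 and 2.47 FPKM in GLUP. Con replicate 3 was close to GLUP replicate 2, and no values overlapped. The mean was 5.18 ± 1.78 FPKM in Con and 2.46 ± 0.453 FPKM in GLUP (SD, n = 3), 2.11-fold higher in Con (log2 difference -0.80, SE 0.30, adjusted p = 0.198 by limma). The other 4 regulators were below 1 FPKM, where groups did not overlap in 5.77% of 24038 genes as lower and in 3.41% as higher, and for them the fit without the minimum was used. Of all 8 members below 1 FPKM, 2 were lower without overlap (SREBF2 and INSIG1) and 4 were higher (MVK, SREBF1, SCAP and FADS2). The transcripts of these 4 had 59.0% to 63.2% GC, that of SREBF2 58.0% and that of INSIG1 44.8%. The 24038 genes include genes close to 0, and a value of 0 in both groups counts as overlap. Their shares are thus not matched to the level of these members. At 1 FPKM or more the shares were 22.7% as lower and 7.55% as higher.

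The pair of SREBP genes lay in opposite directions in the values as deposited. SREBF1 (chromosome 17, 17713713 to 17740316, minus strand, GRCh37), which encodes the SREBP form that acts mostly on fatty acid genes, was at 0.0518, 0.146 and 0.0318 FPKM in Con and 0.564, 0.399 and 0.642 FPKM in GLUP. All GLUP libraries were above Con, 7.0-fold by the means (0.0764 ± 0.0608 and 0.535 ± 0.124 FPKM, SD, n = 3). With single libraries left out, the fold ran from 5.42 (without Con replicate 3) to 12.8 (without Con replicate 2). The log2 difference was 0.51 (SE 0.12, adjusted p = 0.589 by limma without the minimum). SREBF2 (chromosome 22, 42229109 to 42303310, plus strand, GRCh37), which encodes the form that acts mostly on sterol genes, was at 0.997, 0.756 and 1.09 FPKM in Con and 0.668, 0.713 and 0.561 FPKM in GLUP. All GLUP libraries were below Con, and the log2 difference was -0.24 (adjusted p = 0.622 by limma without the minimum). Relative to the median of all genes tested, SREBF2 was at -0.0084 and SREBF1 at 0.74, both at a pseudocount of 1 FPKM. With the trimmed mean the log2 difference of SREBF2 was -0.11. The ratio of SREBF1 to SREBF2 was 0.0520, 0.193 and 0.0291 in Con and 0.844, 0.560 and 1.14 in GLUP. SREBF2 overlaps SREBF2-AS1 on the opposite strand by 731 exon bases (9.1%). SCAP was at 0.326, 0.177 and 0.293 FPKM in Con and 0.417, 0.449 and 0.454 FPKM in GLUP, higher in all 3, with a log2 difference of 0.19. INSIG1, the anchor, was at 1.67, 0.964 and 0.948 FPKM in Con and 0.661, 0.656 and 0.780 FPKM in GLUP, lower in all 3, with a log2 difference of -0.35. Neither passed the test (adjusted p = 0.622 and 0.591 by limma without the minimum). SREBF1 (63.2% GC), SCAP (61.7%) and SREBF2 (58.0%) all have GC-rich transcripts. Among all tested genes above 54.5% GC, the median log2 difference was 0.25 and 30.5% were lower. The GC trend was not removed for genes below 1 FPKM, and its part in these values was not tested.

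In the fatty acid arm, 6 of 7 tested members were lower (85.7%, against 65.5% of all genes tested). The median log2 difference was -0.44, the value of ELOVL6, from -1.31 to 0.42, and -0.21 relative to the median of all genes. ELOVL6 and ACSL3 reached the minimum through Con (means 1.42 and 2.12 FPKM, against 0.764 and 0.884 FPKM in GLUP). FADS2, with higher values in all 3 GLUP libraries, did not reach it. Over all 10 members of the arm the median was -0.11. ME1 (chromosome 6, 83920121 to 84140770, minus strand, GRCh37), the malic enzyme that supplies NADPH for synthesis, had the most negative log2 difference of the members with all 6 libraries and a pseudocount of 1 FPKM, although the ratio of means was larger for HMGCS1 (3.56-fold) and CYP51A1 (12.2-fold), both of which rest on 1 Con library. ME1 was at 11.3, 7.60 and 4.14 FPKM in Con and 2.29, 2.40 and 2.21 FPKM in GLUP. The GLUP values were close together while Con varied, with replicate 3 the lowest. The means were 7.67 ± 3.57 and 2.30 ± 0.0992 FPKM (SD, n = 3), 3.33-fold higher in Con, and the log2 difference was -1.31 (SE 0.34, adjusted p = 0.194 by limma). ACLY, which makes cytosolic acetyl-CoA from citrate, lay at 4.14 to 6.60 FPKM in Con and 2.46 to 4.40 FPKM in GLUP (log2 difference -0.54). ACACA was at 4.40, 1.66 and 3.21 FPKM in Con and 3.16, 2.27 and 3.04 FPKM in GLUP, with its Con values on both sides of GLUP (log2 difference -0.05). FASN was at 0.0271, 0.101 and 0.0821 FPKM in Con and 0.0637, 0.0968 and 0.0461 FPKM in GLUP, and neither ACACA nor FASN kept its sign in every setting tried.

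The later steps of the arm desaturate, lengthen and activate the chain. SCD (chromosome 10, 102106990 to 102124583, plus strand, GRCh37) was at 11.6, 9.96 and 9.66 FPKM in Con and 16.2, 13.4 and 13.3 FPKM in GLUP. The GLUP values all lay above Con, and the mean was 1.37-fold higher (10.4 ± 1.02 and 14.3 ± 1.63 FPKM, SD, n = 3), with a log2 difference of 0.42 (SE 0.27, adjusted p = 0.342 by limma). FADS2 was at 0.555, 0.249 and 0.492 FPKM in Con and 0.688, 0.710 and 2.06 FPKM in GLUP, higher in all 3 and carried mostly by GLUP replicate 3. Without that library its log2 difference was 0.25 against 0.54 with it. FADS2 shares 49 exon bases (0.5%) with FEN1 on the same strand and 490 (4.6%) with FADS1 on the opposite strand. FEN1 was at 4.72 to 11.7 FPKM in Con and 16.3 to 19.6 FPKM in GLUP. The part of these overlaps in the values of FADS2 was not tested. FADS1, the neighbouring desaturase, differed by -0.10 with overlapping groups. ELOVL6, the elongase of saturated chains, and ACSL3, which activates fatty acids, were lower by sign (-0.44 and -0.70) with overlapping groups, as was ACSL4 (-0.12).

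Since the libraries followed GC content, the members were next placed by the GC content of their transcripts. Genes were sorted into 4 GC bins of like size. In the bin with the lowest GC (up to 41.6%), all 9 members were lower in GLUP with a median log2 difference of -0.80, against -0.55 for all genes of that bin, of which 91.6% were lower. In the second bin 3 of 5 members were lower and their median was -0.04, against -0.39 for all its genes, and in the third 5 of 5 were lower with a median of -0.08, against -0.09 for all its genes, of which 58.2% were lower. In the bin with the highest GC (above 54.5%), 1 of 6 members was lower and the median was 0.40, against 0.25 for all its genes. Over the 25 tested members the log2 difference followed GC content with a Pearson correlation of 0.787 and a Spearman correlation of 0.781, given as a description, since all points share the same 6 libraries. When the trend of each library with GC content and length was removed, 2 members were lower (ACAT2 and ME1, 8%) and 2 higher (SQLE and SCD, 8%) at an unadjusted p under 0.05, against 9.01% and 9.52% of 7279 genes. The sterol median was then -0.12 and the fatty acid median 0.04. ACAT2 was then at -0.79, ME1 at -0.76, SQLE at 0.86 and SCD at 0.76 on the log2 scale, with adjusted p of 0.193, 0.212, 0.212 and 0.185 by limma. MSMO1 was at -0.12, STARD4 at -0.17 and SC5D at -0.37. Whether GC content is the cause of the differences was not tested.

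**Figure D4:**
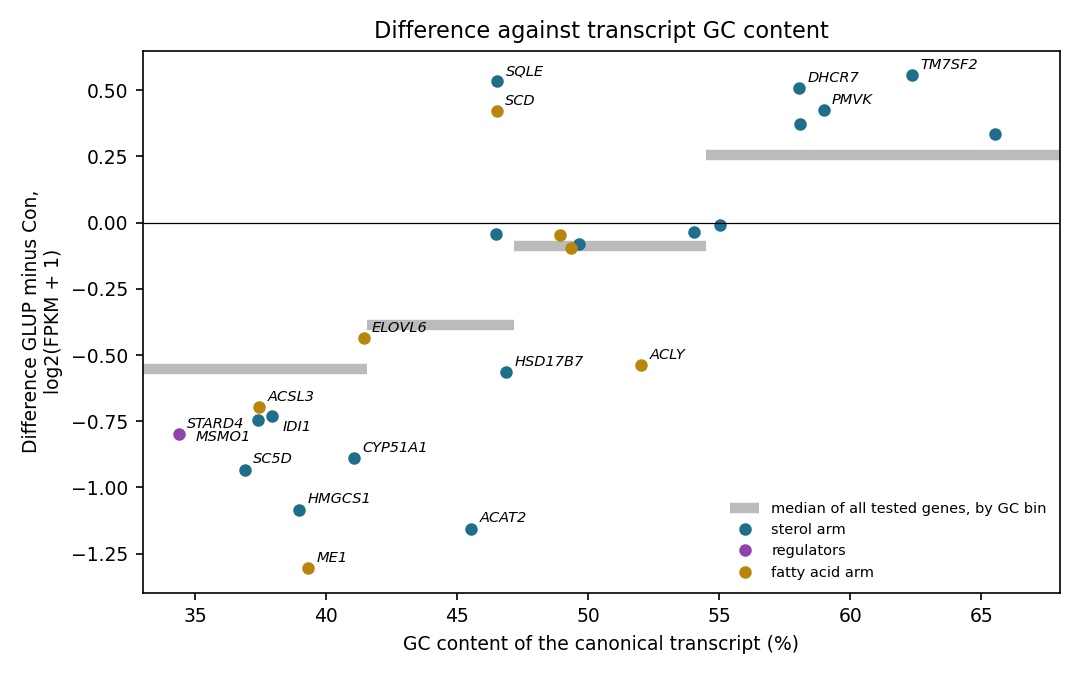
Log2 difference in FPKM + 1, GLUP minus Con, against the GC content of the transcript for the 25 tested members, 1 point per gene coloured by arm, with grey bars for the median of all genes in each GC bin. Members with GC up to 41.6% all lie below 0, and SQLE and SCD lie above the grey bar of their bin.

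The wider network was read from lists of 53 further genes, of which 30 were tested. By sign 21 were lower, 7 were lower at an unadjusted p under 0.05 (23.3% against 17.2% of all genes tested) and 0 higher (against 4.46%), and 0 passed an adjusted p of 0.05 by limma, while the median log2 difference was -0.20 beside -0.23 for all genes. The 7 were RNF139 and ERLIN1 of SREBP processing and turnover (3 of 7 tested), GGPS1 and FNTA of the isoprenoid branch (6 of 9), NPC2 of sterol movement (4 of 11), IDH1 of precursor and NADPH supply (5 of 8) and ACADM of fatty acid oxidation (8 of 9), while elongation and activation (4 of 9 tested) had none. RNF139, a ubiquitin ligase of the endoplasmic reticulum, was at 17.6 ± 4.61 FPKM in Con and 8.73 ± 1.09 FPKM in GLUP (SD, n = 3, log2 difference -0.91). In the isoprenoid branch, FNTA, a subunit of the farnesyltransferase, was at 8.20 ± 2.65 and 3.41 ± 0.481 FPKM (log2 difference -1.02). NPC2, which hands cholesterol out of the lysosome, was at 173 ± 35.5 and 92.6 ± 8.10 FPKM (log2 difference -0.88). On the higher side, TECR, the reductase of chain elongation, was at 113 ± 92.5 and 248 ± 94.6 FPKM with overlapping groups, and Con replicate 2 was at 16.2 FPKM. ECHS1, a hydratase of fatty acid oxidation, was at 18.8 ± 7.69 and 30.9 ± 1.82 FPKM, and TALDO1, a transaldolase of the pentose phosphate pathway, at 24.7 ± 4.72 and 33.6 ± 3.08 FPKM. Both lay above Con in every GLUP library, and neither passed the test (adjusted p = 0.240 and 0.352 by limma). The transcripts of the 7 lower genes had 35.9% to 47.5% GC, and those of TECR, ECHS1 and TALDO1 had 53.6% to 60.5%. The part of GC content in these lists was not tested.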

How the data were processed

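RNA-seq of 3 Con and 3 GLUP libraries of HGC-27 cells was analysed from 1 table of FPKM values deposited by the authors, in which fragments are scaled to gene length and to the mapped fragments of a library. The submitters' processing notes name HISAT2, Cufflinks, RSEM and the build GRCh38.p10, without versions or roles, whereas the row identifiers carry the suffix of an annotation lifted to GRCh37, so coordinates of genes are from GENCODE lifted to GRCh37 and those of promoters from RefSeq on GRCh38.p14. Of 62492 rows, 49 pseudoautosomal duplicates were at 0 and were merged. The table gives no counts, so no count test was run. The 7406 genes averaging 1 FPKM or more over the 6 libraries were tested on log2(FPKM + 1) with limma 3.58.1 in R 4.3.3 (lmFit, eBayes with trend, two-sided, Benjamini-Hochberg adjustment over all of them), and members below that level were read from the same fit over the 31444 genes above 0. For the GC and length trend, a loess curve with a span of 0.5 was subtracted per library over 7279 genes. Alternatives covered the pseudocount, the minimum, scaling, a replicate block and leaving out each library. Fits were tested on simulated data. The members and lists were chosen with earlier results of these data known. All 33 members are named. Given library by library are those with an unadjusted p under 0.05, those whose groups did not overlap, and HMGCS1, SQLE, INSIG1, SREBF1, SREBF2, SCAP, ACACA, FASN and SCD for their roles. Of the other lists, the 3 genes with the smallest unadjusted p in each direction are named. Same-numbered libraries did not deviate together (correlations 0.132, -0.0102 and -0.173), so the numbers were not taken as pairs.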

Additional observations from a re-analysis of the deposited data

How the results depend on the processing

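Of 16 members given library by library, 14 kept their sign in every setting run, ACAT2 between -1.43 and -0.79, ME1 between -1.64 and -0.76, SQLE between 0.36 and 0.86 and SCD between 0.34 and 0.76 on the log2 scale. Apart from HMGCS1, the 14 had groups that did not overlap. For such members, leaving out a library or changing the pseudocount cannot reverse the sign. The minimum, the options of eBayes and the replicate block leave the log2 difference as it is. Only scaling and trend removal could have reversed them, so most settings are no test of their sign. The number of members called was 0 under every alternative except leaving out single libraries (range 0 to 6, the 6 without Con replicate 3). The number with an unadjusted p under 0.05 was 2 of 11 members with a minimum of 5 FPKM. With the replicate block it was 7 of 25, and 3 to 12 of 25 when single libraries were left out. The 12 came without Con replicate 3, where 16.3% of all genes tested passed even the adjusted p of 0.05 by limma as lower. The share of all genes at the unadjusted p is not given for these 3 settings, so the counts are no result about the members. The sterol median moved to 0.25 under trimmed-mean scaling, 0.24 with the upper quartile, 0.20 with quantile normalization, 0.22 when centred on the median, and -0.35 (without Con replicate 2) to 0.12 (without Con replicate 1) without single libraries. With the trimmed mean, 12 of 25 members were lower and 13 higher. The median of all 5 regulators was -0.24 with no filter and with a minimum of 0.1 FPKM, whereas the other settings hold STARD4 alone, which gave -0.53 when centred, -0.17 with the GC and length trend removed, also with the replicate block, and -1.07 to -0.65 without single libraries. The fatty acid median was -0.65 and -0.67 with pseudocounts of 0.1 and 0.01 FPKM, -0.11 with no filter, -0.12 with a minimum of 0.1 FPKM, 0.42 with a minimum of 5 FPKM, where SCD alone remained, -0.28 with the trimmed mean and the upper quartile, -0.26 with quantile normalization, -0.17 when centred, 0.039 with the GC and length trend removed, also with the replicate block, and -0.71 to -0.25 without single libraries. ACACA reversed to 0.17 with the trimmed mean and the upper quartile, 0.16 with quantile normalization, 0.22 when centred, 0.21 with the GC and length trend removed, also with the replicate block, and ran from -0.33 to 0.18 without single libraries. FASN reversed to 0.0053 and 0.073 with pseudocounts of 0.1 and 0.01 FPKM, 0.016 with the trimmed mean and 0.015 with the upper quartile, and ran from -0.031 to 0.020 without single libraries. The cause was not tested. Centring, quantile normalization and trend removal were not run for members below 1 FPKM. FPKM gives no read depth, so counting error is unknown for the low members.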
